A study of Mus musculus with 6 samples.

Results

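Zbtb9 and Ggnbp1 lie next to each other on mouse chromosome 17, near 27 Mb of the mm10 genome, and showed changes in opposite directions in the cortex of newborn mice that carry 1 disrupted copy of Npas3. They are described here with 5 genes from the same stretch, Bak1, Cuta, Phf1, Itpr3 and Lemd2. Zbtb9 and Ggnbp1 were chosen for their read counts in this comparison, and the other 5 for their position. The 7 genes are 7 of the 53379 genes in the deposited table, and all 7 passed the filter on low counts. The study measured total RNA in bulk from cortex at postnatal day 0. It compared 3 libraries of genotype Npas3+/- with 3 wild-type (WT) libraries, all labelled with the strain C57BL/6. How the Npas3 allele was made is not given in the sources used here. No label names the animals behind the replicates, so the spread between libraries, and every p-value drawn from it, may be partly technical.

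Zbtb9 encodes a protein with a BTB domain and zinc fingers, a family of DNA-binding transcriptional regulators that pair through the BTB domain. Ggnbp1 encodes a binding partner of gametogenetin, known mainly from the testis and sperm development. Bak1 is a pro-apoptotic BCL2 family protein that opens pores in the mitochondrial outer membrane, and Itpr3 is an inositol trisphosphate (IP3) receptor that releases calcium from the endoplasmic reticulum. Phf1 is an accessory subunit of Polycomb repressive complex 2 (PRC2), which methylates histone H3 at silenced genes. Lemd2 is a LEM-domain protein of the inner nuclear membrane, and Cuta, widely expressed in brain, is linked to the anchoring of acetylcholinesterase at the cell surface.

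In the order of the chromosome, the genes are Phf1 (17, 26933052 to 26937908), Cuta (26933819 to 26939569), Zbtb9 (26973167 to 27008376), Ggnbp1 (27017987 to 27037624), Bak1 (27019810 to 27029009), Itpr3 (27057304 to 27122223) and Lemd2 (27189600 to 27204469), in GENCODE M21 on mm10. Phf1, Zbtb9, Ggnbp1 and Itpr3 are on the forward strand, and Cuta, Bak1 and Lemd2 on the reverse. In M21 the spans of Zbtb9 and Ggnbp1 are 9610 bases apart. That span of Zbtb9 runs beyond its coding transcript, which ends at 26976203. Bak1 lies wholly inside the span of Ggnbp1 on the other strand, and 437 of its 2407 exon bases (18.2%) are also Ggnbp1 exon. Cuta and Phf1 share 1370 exon bases on opposite strands. Whether the counting used strand is not given in the sources used here, so reads from these opposite pairs may not have been separated.

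The annotation also holds a transcript that joins the 2 genes. This readthrough transcript, ENSMUST00000133257, is named for Ggnbp1, is classed as a target of nonsense-mediated decay and runs from 26973217 to 27036378 in 9 exons. Its first 2 exons lie on Zbtb9 and the remaining 7 on Ggnbp1. It covers 2746 of the 2796 bases (98.2%) of the Zbtb9 transcript that encodes the protein, which ends at 26976203, and 1648 bases of the exons of Ggnbp1. Of the 2747 windows of 50 bases in that coding transcript, 2697 occur in the readthrough transcript. GENCODE M21 places the latter under an identifier of its own, ENSMUSG00000117819, while the counts analysed stand under ENSMUSG00000079605 for Zbtb9 and ENSMUSG00000048731 for Ggnbp1. The identifier of Ggnbp1 carries version 14 in the table and version 15 in M21, and that of Zbtb9 version 4 against 5. The counts were therefore made with another release, in which the assignment of this transcript is not known here.

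**Figure D1:**
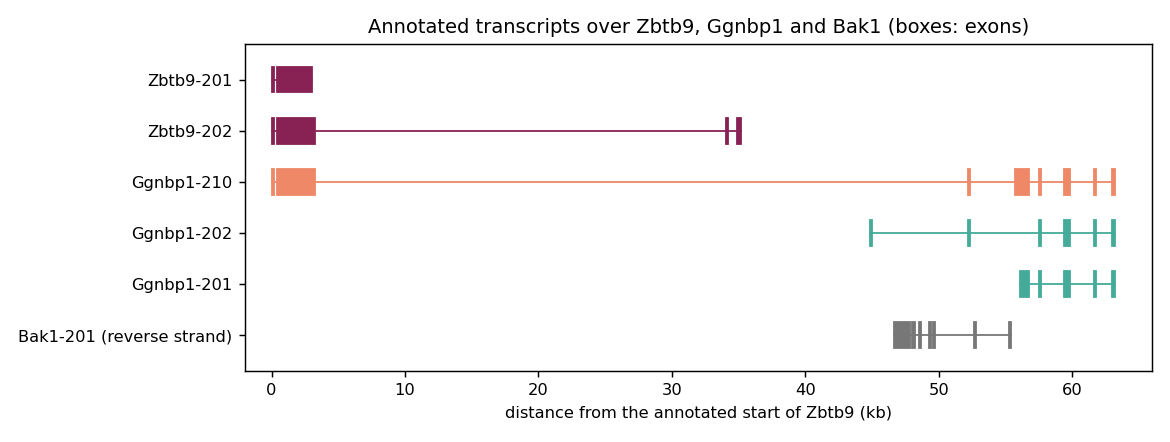
Annotated transcripts over Zbtb9, Ggnbp1 and Bak1, drawn by distance from the start of Zbtb9 in kb, with exons as boxes and introns as lines. The readthrough transcript, in orange, starts 50 bases into the first exon of the coding Zbtb9 transcript, covers 98.2% of its 2 exons together, and then carries 7 exons that lie on Ggnbp1, and Bak1 on the reverse strand overlaps the early part of Ggnbp1.

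The regions around the starts of the 2 genes are shown because Zbtb9 and the joining transcript start within 50 bases of each other, while Ggnbp1 has 2 starts of its own further along. Each is 300 bases on the forward strand, from RefSeq on GRCm38.p6, with the 250 bases before the start in lower case and the 50 from the start on in capitals. The Zbtb9 region is chr17:26972929-26973228, and the Ggnbp1 regions are chr17:27017785-27018084 and chr17:27029009-27029308.
Zbtb9: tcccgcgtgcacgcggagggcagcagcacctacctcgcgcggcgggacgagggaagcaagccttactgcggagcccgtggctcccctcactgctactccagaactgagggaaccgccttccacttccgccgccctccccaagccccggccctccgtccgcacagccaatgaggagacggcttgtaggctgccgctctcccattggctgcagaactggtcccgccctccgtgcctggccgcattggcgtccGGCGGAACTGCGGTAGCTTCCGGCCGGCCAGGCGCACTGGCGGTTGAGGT
Ggnbp1, upstream start: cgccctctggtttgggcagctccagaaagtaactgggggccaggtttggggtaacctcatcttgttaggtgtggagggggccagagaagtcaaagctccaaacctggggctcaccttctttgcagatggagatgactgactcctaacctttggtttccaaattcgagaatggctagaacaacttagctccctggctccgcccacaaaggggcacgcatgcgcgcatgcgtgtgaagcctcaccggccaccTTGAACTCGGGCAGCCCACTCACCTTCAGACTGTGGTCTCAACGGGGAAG
Ggnbp1, downstream start: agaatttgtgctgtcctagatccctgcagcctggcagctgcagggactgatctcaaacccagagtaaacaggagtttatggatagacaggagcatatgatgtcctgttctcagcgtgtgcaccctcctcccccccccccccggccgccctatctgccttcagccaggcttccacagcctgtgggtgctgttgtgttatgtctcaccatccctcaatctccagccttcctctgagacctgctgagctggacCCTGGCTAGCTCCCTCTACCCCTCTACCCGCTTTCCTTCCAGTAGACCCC
The Zbtb9 region holds 30 CpG dinucleotides and is 69.7% G and C, against 10 and 56.7% for the upstream Ggnbp1 region and 4 and 57.7% for the downstream one. The median over 32851 mouse start regions of this length was 7 CpG. Among 4 motifs searched on both strands, CCAAT occurred 3 times at Zbtb9 and 0 times in either Ggnbp1 region, and 37.4% of all start regions held it. GGGCGG, the GC box, occurred 2 times at Zbtb9 and 1 time in each Ggnbp1 region (35.7% of all regions). TATAAA (13.6% of all regions) and ACGTG, the core shared by many bHLH-PAS sites (19.6%), had no match in these 3 windows. ACGTG had 2 matches at Itpr3 and 0 at Phf1 and Bak1, and 5 and 2 in the overlapping regions of 2 Cuta starts. Matches are counted on each strand, so 1 CACGTG site, which reads the same on both, gives 2 of them. The matches at Itpr3 and Cuta are thus more than the sites. The table held start regions for 6 of the 7 genes, all but Lemd2.

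The coding sequence of Zbtb9, 1377 bases in 1 exon, opens at chr17:26973623-26973682 with the 60 bases below, on the forward strand and with the start codon in capitals. They are shown because the readthrough transcript contains them too, so a read that falls here matches transcripts named for either gene.
Zbtb9 coding start: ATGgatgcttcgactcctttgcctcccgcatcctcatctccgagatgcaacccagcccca

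Total counts per library ran from 67378231 to 87811574. Levels are given as CPM, read counts divided by library size after scaling by edgeR's TMM method. Npas3 checks the labels: it stood at 14.96, 14.13 and 8.61 CPM in Npas3+/- replicates 1 to 3 and at 23.4, 28.4 and 25.7 CPM in WT, so the genotypes did not overlap. The genotypes did not overlap in 18.9% of all genes tested. Of 21244 genes tested with edgeR's quasi-likelihood test, 8 passed at a Benjamini-Hochberg adjusted p of 0.05, or 16 without WT replicate 1. Npas3 did not pass in edgeR, with a log2 fold change of -1.04 (SE 0.20, edgeR adjusted p = 0.27). DESeq2 called it, with an adjusted p of 1.75e-04. As a check of the tissue, the 12 markers of cortical projection neurons summed to 2628 to 3569 CPM over the 6 libraries, and those of choroid plexus to 1.39 to 2.67 CPM.

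Zbtb9 had few counted reads in WT cortex and many in Npas3+/- cortex. How reads on the exons it shares with the readthrough transcript were assigned is not known here. Its counts were 46, 59 and 41 in WT replicates 1 to 3 and 2194, 1866 and 1977 in Npas3+/-. These are 0.680, 0.703 and 0.571 CPM in WT against 24.96, 24.3 and 26.2 CPM in Npas3+/-. All 3 Npas3+/- libraries stood far above all 3 WT libraries, and within each genotype the values were close together. The means were 0.651 ± 0.070 CPM in WT and 25.1 ± 0.971 CPM in Npas3+/- (SD, n = 3), 38.6 times as high. The log2 fold change from the fit over all genes was 5.27 (SE 0.13).

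Ggnbp1 went the other way in the same libraries. Its counts were 2233, 2423 and 2410 in WT and 928, 539 and 621 in Npas3+/-. In CPM it stood at 33.0, 28.9 and 33.6 in WT and at 10.6, 7.01 and 8.22 in Npas3+/-. The lowest WT library was well above the highest Npas3+/- library, replicate 1. The means were 31.8 ± 2.58 and 8.60 ± 1.80 CPM (SD, n = 3), 3.70 times as high in WT, with a log2 fold change of -1.89 (SE 0.16). Among the Npas3+/- libraries the SD relative to the mean was larger for Ggnbp1 than for Zbtb9. The values of both genes are a description and carry no test here. Of the 7 genes, these 2 were past edgeR's threshold, Zbtb9 higher and Ggnbp1 lower. Of all genes tested 0.0377% passed, 0.0282% higher and 0.00941% lower, and since these values chose the 2 genes nothing is read from their count.

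In CPM, which is not divided by gene length, the loss in Ggnbp1 and the gain in Zbtb9 were of nearly the same size. Per kb of annotated exon they were not: Zbtb9 stood at 0.187 in WT and 7.22 in Npas3+/-, and Ggnbp1 at 5.58 and 1.51. The balance is thus one of counted reads. Zbtb9 was higher by 24.5 CPM in Npas3+/- cortex and Ggnbp1 differed by -23.2 CPM. Added together, the 2 genes stood at 33.7, 29.6 and 34.2 CPM in WT and at 35.5, 31.3 and 34.4 CPM in Npas3+/-. The sums of the genotypes overlapped, and replicate 2 was the lowest in both. The mean sum was 32.5 ± 2.53 CPM in WT and 33.7 ± 2.20 CPM in Npas3+/- (SD, n = 3). That is a log2 ratio of 0.06, smaller than the SD of 0.12 among the log2 sums of the WT libraries. The reads of both genes were also entered as 1 gene in the edgeR fit, a choice made once the data had been seen. The log2 fold change was 0.06 (SE 0.09), with an approximate 95% interval from -0.12 to 0.23. The interval uses a normal approximation, which is too narrow for n = 3 per genotype. Since both genes were chosen for this comparison, these values are a description and not a test of a constant sum.

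What differed was the share of the pooled reads that fell to each gene. Zbtb9 took 2.02%, 2.38% and 1.67% of the Zbtb9 and Ggnbp1 reads in WT replicates 1 to 3, with exact Clopper-Pearson 95% intervals of 1.48 to 2.68%, 1.81 to 3.06% and 1.20 to 2.26%. In Npas3+/- replicates 1 to 3 it took 70.3%, 77.6% and 76.1%, with intervals of 68.6 to 71.9%, 75.9 to 79.2% and 74.4 to 77.7%. The intervals cover counting error only. The mean share was 2.02 ± 0.352% in WT and 74.7 ± 3.86% in Npas3+/- (SD, n = 3). Npas3+/- replicate 1, with the highest Ggnbp1 level, had the lowest share of the 3. The part played in these values by the transcript that spans both genes, and by how reads on shared exons were assigned, was not tested.

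**Figure D2:**
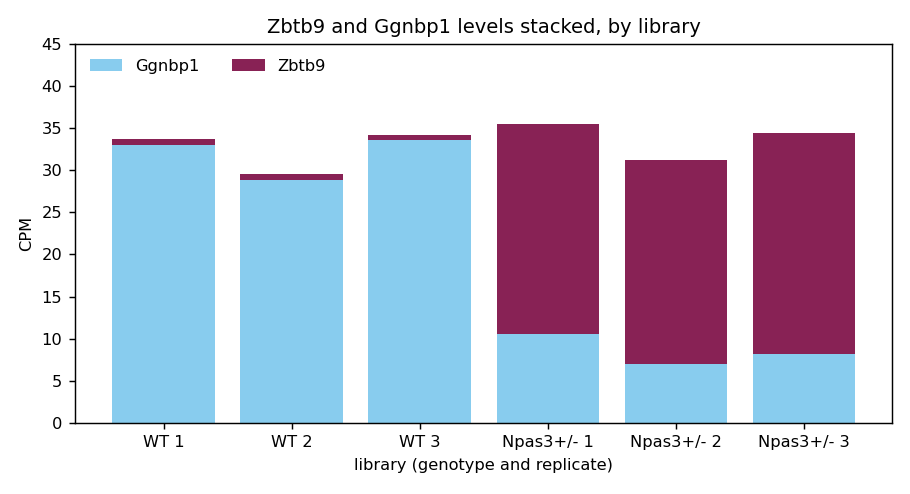
CPM of Ggnbp1 (light) and Zbtb9 (dark), stacked for each of the 3 WT and 3 Npas3+/- libraries, with the library on the horizontal axis. The bar heights run from 29.6 to 35.5 CPM in all 6 libraries, while Zbtb9 makes up about 2.02% of the bar in WT and 74.7% in Npas3+/-.

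Bak1, which lies inside Ggnbp1 on the other strand, had nearly the same level in both genotypes. It stood at 24.4, 24.9 and 24.3 CPM in WT and at 24.3, 22.1 and 25.7 CPM in Npas3+/-. The WT values fell within the range of the Npas3+/- values. On the log2 scale the difference was -0.03 (SE 0.09), above 0 in 1 of 13 alternative fits. Itpr3 begins 28294 bases beyond the end of Bak1. It stood at 6.40, 3.82 and 4.84 CPM in WT and at 5.29, 5.12 and 5.38 CPM in Npas3+/-, a log2 fold change of 0.07 (SE 0.20). The Npas3+/- libraries were close together and lay between WT replicates 1 and 3. The sign of this small difference was negative in 1 of 13 alternative fits.

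Upstream of Zbtb9, the tail-to-tail pair Phf1 and Cuta had slightly higher means in Npas3+/- cortex, with overlap. Phf1 stood at 33.0, 38.3 and 41.0 CPM in WT against 43.4, 43.2 and 38.7 CPM in Npas3+/-, for which the fit gave 0.16 (SE 0.10) on the log2 scale. Npas3+/- replicate 3 was below WT replicate 3, so the genotypes were not separated. Cuta stood at 15.8, 17.8 and 17.2 CPM in WT and at 16.95, 21.04 and 17.7 CPM in Npas3+/-, and its fitted log2 change was 0.13 (SE 0.11). Npas3+/- replicate 2 alone was above all WT libraries. Because the exons of these 2 genes overlap, their values may share reads.

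Lemd2, the most distant of the 7, was the only one of the 5 chosen by position whose genotypes did not overlap. It stood at 67.8, 70.5 and 73.3 CPM in WT and at 79.8, 79.4 and 74.6 CPM in Npas3+/-. The log2 fold change was 0.14 (SE 0.06), and the gap between the nearest libraries of the 2 genotypes was small. Among all genes tested, the genotypes did not overlap in 18.9%, of which 9.7% of all were higher in Npas3+/- and 9.18% lower. A count of 1 in 5 is thus near that background. Of the 5 genes chosen by position, 0 passed in edgeR, DESeq2 or limma-voom. Their edgeR adjusted p-values ran from 0.411 for Lemd2 to 0.932 for Itpr3. At an unadjusted p under 0.05 in edgeR there was 1 of 5, Lemd2, beside 12.1% of all genes tested.

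**Figure D3:**
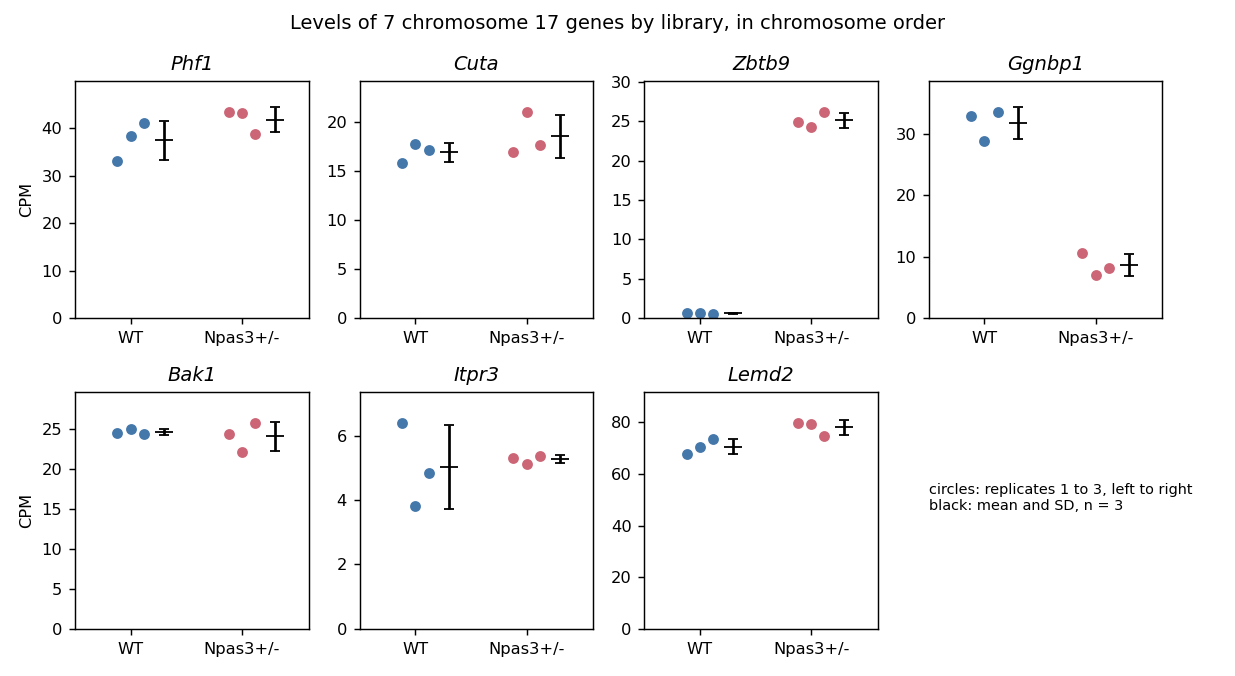
CPM of the 7 genes in each library, 1 panel per gene in chromosome order, with WT in blue, Npas3+/- in red, and the mean and SD of 3 libraries in black. Zbtb9 and Ggnbp1 show wide gaps between the genotypes in opposite directions, Lemd2 a narrow gap, and the other 4 genes overlap.

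Divided by the length of their exons, the 7 genes changed order between the genotypes. In WT the order, in CPM per kb of annotated exon, was Lemd2 (14.5 ± 0.564), Phf1 (10.7 ± 1.17), Bak1 (10.2 ± 0.138), Ggnbp1 (5.58 ± 0.452), Cuta (4.53 ± 0.266), Itpr3 (0.557 ± 0.144) and Zbtb9 (0.187 ± 0.020; SD, n = 3). Only Phf1 and Bak1 overlapped as neighbours in that order. In Npas3+/- the order was Lemd2 (15.99 ± 0.590), Phf1 (11.98 ± 0.769), Bak1 (9.98 ± 0.767), Zbtb9 (7.22 ± 0.279), Cuta (4.96 ± 0.582), Ggnbp1 (1.51 ± 0.316) and Itpr3 (0.584 ± 0.014), with no overlap between neighbours. Zbtb9 thus moved from the lowest place to the fourth and Ggnbp1 from the fourth to the sixth, while the other 5 kept their order among themselves. The lengths are those of M21 and need not be those used in the counting.

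None of the other tested genes of the neighbourhood passed the test. Within 500 kb either side of the 2 genes (17, 26473167 to 27537624), 12 further genes were tested, 9 of them protein-coding. None passed in edgeR (0 of 12), DESeq2 or limma-voom, and 2 were at an unadjusted p under 0.05 in edgeR, beside 12.1% of all genes tested. The log2 fold changes of the 9 protein-coding genes ran from -0.12 to 0.15, and the median of all 12 was -0.02 beside -0.01 over all genes tested. A further 17 genes of the window were counted at no more than 18 reads in any library and were not tested.

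The antisense transcript Gm26724, which overlaps Lemd2 by 19 exon bases, stood at 3.18, 2.14 and 2.75 CPM in WT and at 4.85, 4.60 and 3.20 CPM in Npas3+/- (0.65, SE 0.23, edgeR adjusted p = 0.351). Its genotypes did not overlap, as in 2 of the 12 genes, near the 18.9% of all genes tested.

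Upstream of Zbtb9, Kifc5b, a kinesin gene, had a log2 fold change of 0.10 (SE 0.22) and overlapped between genotypes. Further upstream, Bnip1, a membrane trafficking gene, stood at -0.12 (SE 0.09), Crebrf at -0.10 (SE 0.11), the proton pump subunit Atp6v0e at -0.02 (SE 0.10), Ergic1 at -0.02 (SE 0.05) and the phosphatase Dusp1 at -0.07 (SE 0.09). Downstream, Uqcc2, an assembly factor of respiratory complex III, was at 0.02 (SE 0.10), and the glutamate receptor gene Grm4 at -0.06 (SE 0.20). The lincRNA Gm17382 (-0.54, SE 0.70) had 7, 52 and 19 counts in WT and 24, 16 and 15 in Npas3+/-, with overlap. The pseudogene Gm8225 (1.49, SE 1.81) was present in some libraries of each genotype and at 0 in others, with 0, 0 and 73 counts in WT and 160, 79 and 0 in Npas3+/-.

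**Figure D4:**
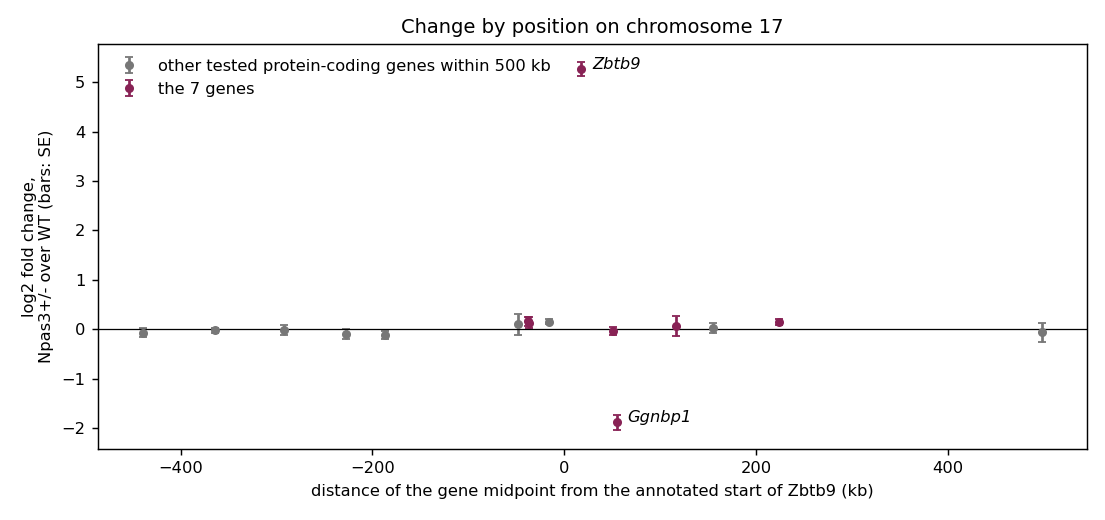
Log2 fold change with its SE, Npas3+/- over WT, against the distance of each gene's midpoint from the start of Zbtb9 in kb, for the 7 genes (dark red) and 9 other tested protein-coding genes (grey). Zbtb9 at 5.27 and Ggnbp1 at -1.89, which were chosen for their counts in this comparison, stand apart, and the grey points lie between -0.12 and 0.15.

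Relatives of the 7 genes elsewhere in the genome were read from lists, with the 7 genes left out. Beside the counts that follow, 12.1% of all genes tested were at an unadjusted p under 0.05 in edgeR, and DESeq2 called 3.4% of the genes it gave an adjusted p. In the BTB zinc finger family the log2 fold changes ran from -1.05 to 0.40. Of 44 relatives tested, 26 had a positive and 18 a negative log2 fold change, with a median of 0.04 beside -0.01 over all genes, and 0 passed in edgeR, DESeq2 or limma-voom (6 at an unadjusted p under 0.05 in edgeR). The smallest p-values were those of Zbtb40 (0.40, SE 0.12, edgeR adjusted p = 0.301), Zbtb25 (-0.57, SE 0.18) and Zbtb45 (0.27, SE 0.09). Among the partners of gametogenetin, Ggnbp2 averaged 81.5 ± 1.56 CPM in WT libraries against 74.5 ± 0.914 CPM in Npas3+/- (SD, n = 3; log2 fold change -0.13, SE 0.05, edgeR adjusted p = 0.391). Ggn, which encodes gametogenetin itself, was near 1 CPM in both (1.03 ± 0.312 in WT and 1.02 ± 0.226 in Npas3+/-). Fancl, a ubiquitin ligase of DNA repair that binds gametogenetin, stood at -0.15 (SE 0.12). Of these 3, 0 passed in edgeR, DESeq2 or limma-voom, and 1 was at an unadjusted p under 0.05 in edgeR.

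Around Bak1, 25 genes of the BCL2 family and mitochondrial apoptosis were tested, 14 with positive and 11 with negative log2 fold changes and a median of 0.01. In edgeR and limma-voom 0 passed, 4 were at an unadjusted p under 0.05 in edgeR, and DESeq2 called 1, Bbc3. Bbc3, the BH3-only activator PUMA, averaged 34.6 ± 5.12 CPM in WT libraries against 48.2 ± 4.28 CPM in Npas3+/- (0.48, SE 0.12, edgeR adjusted p = 0.276). The mitochondrial protease Htra2 was at 0.33 (SE 0.12).

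Among the 11 PRC2 genes other than Phf1, 6 had positive and 5 negative log2 fold changes, with a median of 0.09. In edgeR and limma-voom 0 passed, with 3 at an unadjusted p under 0.05 in edgeR. Jarid2, which helps recruit PRC2, was the 1 gene called by DESeq2 and averaged 79.0 ± 4.86 CPM in WT libraries against 94.6 ± 3.56 CPM in Npas3+/- (0.26, SE 0.07, edgeR adjusted p = 0.276). Phf19, a paralogue of Phf1, averaged 3.06 ± 0.205 CPM in WT libraries against 1.92 ± 0.152 CPM in Npas3+/- (-0.68, SE 0.18, edgeR adjusted p = 0.276). Suz12, a core subunit, was at 35.9, 40.2 and 74.3 CPM in WT and at 84.5, 76.7 and 68.3 CPM in Npas3+/- (0.61, SE 0.26). WT replicate 3 alone of the WT libraries reached the Npas3+/- range.

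Of 24 genes of IP3 receptors and calcium handling in the endoplasmic reticulum, 12 had positive and 12 negative log2 fold changes, with a median of -0.01. In edgeR and limma-voom 0 passed. At an unadjusted p under 0.05 in edgeR there were 6 (12.1% over all genes), and DESeq2 called 3, Itpka, Ryr1 and Stim2 (3.4% over all genes). Itpka, which encodes a kinase that phosphorylates IP3, had the lowest log2 fold change of the list, -1.66, and is named after its value was seen. Stim2, a calcium sensor of the endoplasmic reticulum, stood at 33.8, 31.3 and 32.9 CPM in WT and at 48.5, 47.2 and 49.3 CPM in Npas3+/- (0.56, SE 0.07, edgeR adjusted p = 0.0861). The genotypes were wide apart compared with their spread, though the test over all genes was not passed. The ryanodine receptor gene Ryr1 was at 0.59 (SE 0.16) and the phospholipase gene Plcg1, which acts upstream of IP3, at 0.26 (SE 0.07).

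For Lemd2, 21 relatives of the nuclear envelope were tested, 14 positive and 7 negative, with a median of 0.06. In edgeR and limma-voom 0 passed, 2 were at an unadjusted p under 0.05 in edgeR, and DESeq2 called 1, the lamin gene Lmnb2 (52.8 ± 2.74 CPM in WT, 64.6 ± 2.31 CPM in Npas3+/-; 0.29, SE 0.07, edgeR adjusted p = 0.276). Sun1, a linker of the nuclear envelope to the cytoskeleton, was at 0.14 (SE 0.06) and Ankle2 at -0.17 (SE 0.08). For Cuta, 13 genes of acetylcholinesterase and metal handling were tested, 5 positive and 8 negative, with a median of -0.14. In edgeR and limma-voom 0 passed, 6 were at an unadjusted p under 0.05 in edgeR (12.1% over all genes), and DESeq2 called 2, Mt1 and Slc30a1, both lower (3.4% over all genes called in either direction). The zinc exporter gene Slc30a1 averaged 42.7 ± 2.55 CPM in WT libraries against 32.3 ± 2.17 CPM in Npas3+/- (-0.40, SE 0.08, edgeR adjusted p = 0.27). The metallothionein genes Mt1 (-0.76, SE 0.21) and Mt3 (-0.35, SE 0.10), which bind zinc and are strong in astrocytes, were lower in mean too, with edgeR adjusted p = 0.276 and 0.284.

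**Figure D5:**
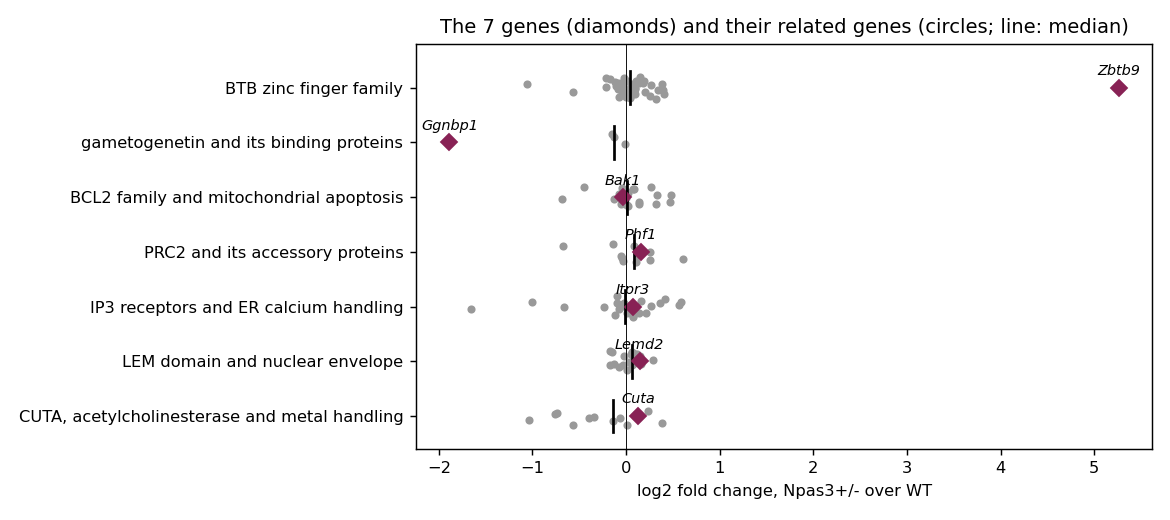
Log2 fold changes, Npas3+/- over WT, of each of the 7 genes (diamonds) and of the tested genes in its related list (circles), with the list median as a line. Zbtb9 at 5.27 and Ggnbp1 at -1.89 lie outside the range of their lists, and Bak1, Phf1, Itpr3, Lemd2 and Cuta inside theirs. Zbtb9 and Ggnbp1 were chosen for their counts in this comparison, and the Ggnbp1 list holds only 3 genes, so their places are a description.

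The genes whose levels over the 6 libraries were most like those of Zbtb9 lay on other chromosomes. By Pearson r of log2 CPM among genes with a mean of at least 1 CPM, they were Tmem127 (r = 0.998), Scarf2 (0.995), Camsap3 (0.991), Stim2 (0.991) and Rpl30 (0.990). For Ggnbp1 they were Psmc1 (r = 0.995), Serpini1 (0.990), Cct5 (0.988), Gm45853 (0.985) and Twistnb (0.983). In all 10 the genotypes did not overlap, so r over 6 libraries mostly reflects the difference between 2 groups of 3 and is a description only. Their sizes of change were far from alike: Tmem127 had a log2 fold change of 2.69 and the ribosomal protein gene Rpl30, a kind of gene with many processed pseudogenes, 2.32, while Camsap3 had 0.39 and Psmc1 -0.06.

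The summed markers of interneurons and of radial glia and astrocytes did not overlap between the genotypes, while those of the other marker lists did. Among all genes tested, taken 1 by 1, the genotypes did not overlap in 18.9%. Meninges and blood vessel markers summed to 200 to 212 CPM in WT and 195 to 208 CPM in Npas3+/-. Red blood cell markers summed to 185 to 238 CPM in WT and 206 to 234 CPM in Npas3+/-. In edgeR 0 genes of the marker lists passed. DESeq2 called Gad2 of the interneuron list, and Fabp7, Slc1a2 and Vim of the radial glia and astrocyte list, all lower (3.4% over all genes in either direction). In bulk RNA, fewer cells of a type and less RNA per cell cannot be told apart. The 13 interneuron markers summed to 657 to 794 CPM in WT and 484 to 627 CPM in Npas3+/-, with 11 of 13 lower. The 14 radial glia and astrocyte markers summed to 1533 to 1653 CPM in WT and 1143 to 1421 CPM in Npas3+/-, with 12 of 14 lower, and none of either list was at 0. The 10 microglia markers, all lower, overlapped in sum (44.7 to 52.3 and 27.9 to 49.3 CPM). Their part in the values of the 7 genes was not tested. The 19 striatal markers, 16 lower, overlapped widely in sum, at 389 to 619 CPM in WT and 336 to 637 CPM in Npas3+/-. Their median log2 fold change was -1.08, beside -0.40 for the interneuron list and -0.37 for the radial glia and astrocyte list.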

How the data were processed

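The deposited file holds whole-number read counts for 53379 genes in 6 libraries, not normalized by the authors. featureCounts, HISAT2 2.1.0, Trimmomatic 0.3.8 and the build mm10 are listed in the submitters' processing notes. Which annotation release was counted, whether strand was used and how reads on 2 genes were treated are not given in the sources used here. The table's NP columns were read as Npas3+/-, since the labels name no genotype other than this and WT. Identifiers were matched without version to GENCODE M21 (53274 of 53379).

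Counts were tested as deposited in edgeR 4.0.16 (R 4.3.3): filterByExpr, TMM, glmQLFit and glmQLFTest with genotype as the only term, and Benjamini-Hochberg adjustment over the 21244 genes tested. SE is the log2 fold change over the square root of F. With 3 libraries against 3, an exact permutation test cannot go below 0.1 and was not used. Alternatives were DESeq2 1.42.0, limma-voom (limma 3.58.1), upper-quartile and RLE scaling, 2 other filters, the replicate number as a block, and each library left out. The fit was also run on counts simulated from its own means and dispersions, and nothing about the calls here is read from that.

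The genes and lists were chosen with earlier results of these data known. The rule for named genes took Npas3, the 7 genes, all tested genes within 500 kb, the 3 smallest p-values per list, and the 5 genes most like Zbtb9 and Ggnbp1 by r. Of the genes this rule takes, 2 are not reported here.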

Additional observations from a re-analysis of the deposited data

How the results depend on the processing

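The log2 fold change of Zbtb9 ran from 5.18 to 5.33 over 13 alternatives and that of Ggnbp1 from -2.06 to -1.76. Ggnbp1 was no longer past the threshold with the replicate number as a block (-1.90, edgeR adjusted p = 0.0871), without Npas3+/- replicate 3 (-1.85, 0.063) or without WT replicate 3 (-1.84, 0.0668). The count of genes past the threshold, 8, became 511 with DESeq2 and 3 with the replicate block, and ran from 7 to 16 with 1 library left out, the highest without WT replicate 1. The cause was not tested. Same-numbered libraries did not deviate together (r of deviations 0.04, -0.03 and -0.09), so the numbers are not taken as pairs. DESeq2 called 1 gene of the apoptosis list, 1 of PRC2, 3 of calcium handling, 1 of the nuclear envelope and 2 of metal handling, where edgeR called 0. The log2 ratio of the summed Zbtb9 and Ggnbp1 level, 0.06, ran from -0.01 to 0.11 with 1 library left out. Scaling moved the median of all genes by at most 0.01 on the log2 scale. At 41 to 59 reads per WT library, Zbtb9 in WT is the least precisely counted of the 7 genes' group values.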

Other observations

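Pairs of nearby genes with opposite changes were counted over the genome, a reading chosen after seeing the data. Among 15525 genes with a mean of at least 1 CPM, 34310 pairs lay within 100 kb of each other. In 14 pairs 1 gene was higher and the other lower in Npas3+/- cortex, without overlap between genotypes in either and with log2 fold changes of at least 0.5 in size. In 1 of the 14, Zbtb9 with Ggnbp1, both were at least 1 in size. That pair was chosen for its changes in these data, so nothing is read from its place among the 14. For Fam228b (-0.87) and Wdcp (0.72), on chromosome 12 as Npas3 is, the summed group means had a log2 ratio of -0.05. Wdcp also forms a listed pair with Pfn4 (-0.80), with a ratio of 0.10. For Nt5e (-0.87) and Gm20537 (1.20), with group means of only 0.858 to 2.62 CPM, it was -0.03. Over the 14 pairs this ratio ran from -0.49 to 1.01. The spread of these sums between libraries was not tested. Such pairs were named after their values were seen. In Lrrc4b (1.03) and Gm44646 (-0.55) the sum did not hold, with a log2 ratio of 1.01. That sum follows Lrrc4b, at 132 CPM in Npas3+/- and 64.6 CPM in WT, beside 1.03 and 1.51 CPM for Gm44646.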
